A study of Mus musculus with 7 samples.

Results

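Long noncoding RNAs of the mouse hippocampus were followed in 7 RNA-seq libraries as a set of 9 genes. Gm26644 (ENSMUSG00000097683) and 3300002P13Rik (ENSMUSG00000107585), which carry only clone or predicted gene names, were set against Meg3, Rian, Mirg, Malat1, Neat1, Snhg11 and Miat, which are noncoding RNAs known from brain. All 9 were found by Ensembl identifier among the 55416 identifiers of the count files, and all 9 were among the 13152 genes that passed the filter on low counts. Gm26644 and 3300002P13Rik were chosen by their measured fold change and false discovery rate (FDR) in ONX-0914-treated against control mice, where both were differentially expressed genes (DEG). Their values in every contrast with ONX-0914 are therefore given as a description, with no test.

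The libraries came from hippocampi of male, age-matched mice of the outbred CD1 strain. There were 3 libraries of control (untreated) mice (replicates 1, 2 and 3), 2 of DMSO-treated mice (replicates 2 and 3) and 2 of ONX-0914-treated mice (replicates 1 and 2). Below, values of a group follow the order of these numbers. The immunoproteasome inhibitor ONX-0914 was given into the abdomen at 10 mg/kg, 2 times per week for 2 months, and its vehicle DMSO in equal volume by the same scheme. No genetic change is given for any group. The sources do not say whether each library came from 1 animal, so the spread between libraries may be partly technical.

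Long noncoding RNAs are transcripts that are not translated into a known protein, and many of them act in the nucleus. Meg3, Rian and Mirg are transcribed in the same direction from the maternal copy of the imprinted Dlk1-Dio3 locus, and Rian and Mirg carry clusters of small nucleolar RNAs and microRNAs in their spans. Malat1 is a nuclear RNA of splicing speckles, Neat1 is the scaffold of paraspeckles, and Miat forms a nuclear domain in neurons. Snhg11 is named as a host gene of small nucleolar RNAs. In brain, Meg3, Rian, Miat and Snhg11 are known mainly from neurons. No role was assigned here to Gm26644 or 3300002P13Rik.

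The sequences at the starts of 4 of these genes are shown first, because Gm26644 and 3300002P13Rik were the lowest, relative to control, in the ONX-0914 libraries and Meg3 and Snhg11 were 2 of the RNAs that lay above control there. Each runs from 250 bases before to 50 bases after the annotated start, on the strand of the gene, and is credited to RefSeq (build GRCm38.p6, which is not the build of the counts). RefSeq entries were found for 8 of the 9 genes, not for Neat1. They lie at chr19:44695431-44695730 (minus strand, Gm26644), chr7:3423396-3423695 (minus strand, 3300002P13Rik), chr12:109540746-109541045 (plus strand, the first of 2 entries for Meg3) and chr2:158375463-158375762 (plus strand, Snhg11). Capitals mark the single motif found in them, a cAMP response element.
Gm26644: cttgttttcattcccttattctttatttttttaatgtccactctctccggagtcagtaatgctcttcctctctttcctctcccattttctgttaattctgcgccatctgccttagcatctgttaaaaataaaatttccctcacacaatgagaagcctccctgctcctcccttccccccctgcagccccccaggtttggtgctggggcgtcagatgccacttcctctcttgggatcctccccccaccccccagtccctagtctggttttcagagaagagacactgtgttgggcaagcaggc
3300002P13Rik: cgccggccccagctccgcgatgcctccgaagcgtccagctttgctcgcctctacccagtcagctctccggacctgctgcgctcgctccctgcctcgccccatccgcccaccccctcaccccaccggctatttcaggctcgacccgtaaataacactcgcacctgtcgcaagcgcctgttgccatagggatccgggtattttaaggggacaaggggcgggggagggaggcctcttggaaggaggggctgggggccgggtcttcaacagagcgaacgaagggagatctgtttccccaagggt
Meg3: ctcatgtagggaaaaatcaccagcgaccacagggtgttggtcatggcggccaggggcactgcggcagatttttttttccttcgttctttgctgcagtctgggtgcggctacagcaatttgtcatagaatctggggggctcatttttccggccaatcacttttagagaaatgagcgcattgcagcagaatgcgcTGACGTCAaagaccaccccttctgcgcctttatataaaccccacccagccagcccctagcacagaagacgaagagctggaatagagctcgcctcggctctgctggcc
Snhg11: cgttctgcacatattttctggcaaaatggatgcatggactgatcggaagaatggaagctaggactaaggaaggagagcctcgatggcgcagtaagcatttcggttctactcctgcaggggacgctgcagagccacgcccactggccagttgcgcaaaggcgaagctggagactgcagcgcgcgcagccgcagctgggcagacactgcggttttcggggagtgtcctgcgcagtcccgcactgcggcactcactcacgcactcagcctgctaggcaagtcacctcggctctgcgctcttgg

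The starts of the 2 uncharacterized genes differed in composition. The window of 3300002P13Rik was 65.0% G and C and held 23 CpG dinucleotides, while that of Gm26644 was 50.3% G and C and held 3. Over the 32851 RefSeq windows of this length, the medians were 52.7% and 7. The windows of Snhg11 (60.0% and 21) and Miat (64.3% and 25) resembled that of 3300002P13Rik in both counts.

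Motifs known from responses to proteasome inhibition, heat shock and neuronal activity were searched on both strands. The antioxidant response element TGACNNNGC was found in the windows of 0 members, against 12.4% of all windows. The heat shock element GAANNTTC was found in the window of Rian alone, starting 102 bases before its start, against 7.86% of all windows. The cAMP response element TGACGTCA was found in the window of Meg3 alone, starting 57 bases before its start, against 1.79% of all windows. The E-box CACGTG was in the windows of 0 members, against 7.15% of all windows. A match is a description of these letters only, and the binding of factors was not measured.

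Sequencing depth set the precision of each value. Levels are given as CPM, the usual scaling of counts to a common library size, after normalization by the trimmed mean of M-values (TMM). Total counts on genes were between 2842675 and 3877006 in 6 libraries and 13782270 in ONX-0914 replicate 2. Marker genes were read beside the tissue label. Chgb and the other genes of the CA3 list summed to 2369 to 2477 CPM in control, and lists of CA1 and dentate gyrus genes were detected in every library. This does not settle the tissue, since the lists of thalamus and midbrain and of striatum were detected in every library too. Both ONX-0914 libraries stood apart, in different ways. In replicate 1 the summed thalamus and midbrain list was 1373 CPM against 165 to 182 in control, and the striatum list was 1378 against 241 to 271. The mitochondrially encoded list was 28598 CPM in replicate 2 against 7392 to 10557 in control. It was also above control, at 12372 to 12568 CPM, in replicate 1 and both DMSO libraries. The CA3 list was low in both ONX-0914 libraries, at 891 and 865 CPM, most of it Chgb. Without Chgb it was 110 and 227 CPM against 245 to 258 in control, so most of the difference in the sum was that of 1 gene. In these bulk samples, fewer cells of a type and less RNA per cell cannot be told apart. Hence, the Log2FC of each of the 9 RNAs in ONX-0914 is given below with and without each of these libraries. Ratios, levels per length and other genes are given by their values in each library or group, without that check.

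Gm26644 and 3300002P13Rik were low in both ONX-0914 libraries. Gm26644 was 24.8, 29.0 and 27.7 CPM in control (70, 107 and 101 counts), 34.2 and 45.1 in DMSO (128 and 127 counts), and 2.76 and 3.22 in ONX-0914 (11 and 49 counts). Both ONX-0914 libraries lay below all 5 others, and the groups did not overlap. The means were 27.2 ± 2.14 CPM in control (SD, n = 3), 39.7 ± 7.74 in DMSO (SD, n = 2) and 2.99 ± 0.331 in ONX-0914 (SD, n = 2). Log2FC, the log2 ratio of 2 group levels fitted by edgeR, was −3.14 (SE 0.255) for ONX-0914 against control. The mean CPM was 9.10-fold lower in ONX-0914.

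3300002P13Rik showed the same order of groups in ONX-0914 and control. Its level was 257, 238 and 239 CPM in control (723, 878 and 870 counts), 198 and 290 in DMSO (741 and 815 counts), and 40.6 and 44.9 in ONX-0914 (162 and 682 counts). Here too, both ONX-0914 libraries lay below all 5 others, while the 2 DMSO libraries lay on either side of control. The means were 245 ± 10.5 CPM in control (SD, n = 3), 244 ± 64.8 in DMSO (SD, n = 2) and 42.7 ± 3.03 in ONX-0914 (SD, n = 2). Log2FC for ONX-0914 against control was −2.51 (SE 0.217), and the mean CPM was 5.72-fold lower.

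Either ONX-0914 library alone gave about the same size. Log2FC of Gm26644 against control was −3.08 with ONX-0914 replicate 1 left out and −3.30 with replicate 2 left out. For 3300002P13Rik it was −2.45 and −2.59. Against the DMSO libraries, Log2FC was −3.68 (SE 0.267) for Gm26644 and −2.51 (SE 0.227) for 3300002P13Rik. Without ONX-0914 replicate 1 these were −3.60 and −2.44, and without replicate 2 they were −3.82 and −2.58. This comparison shares the ONX-0914 libraries with the one above and is not separate evidence. The CA3 list, most of it Chgb, was low in the same 2 libraries, and its part in these values was not tested. The CA1 list (200 and 646 CPM against 548 to 617 in control) and the dentate gyrus list (178 and 366 against 375 to 433) were lowest in ONX-0914 replicate 1. Genes of the CA1 list differed in replicate 2, where Pou3f1 was 86.6 CPM against 138 to 170 in control and Fibcd1 68.4 against 121 to 154, while Mpped1 was 230 against 109 to 124. The part of these lists was not tested either.

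**Figure D1:**
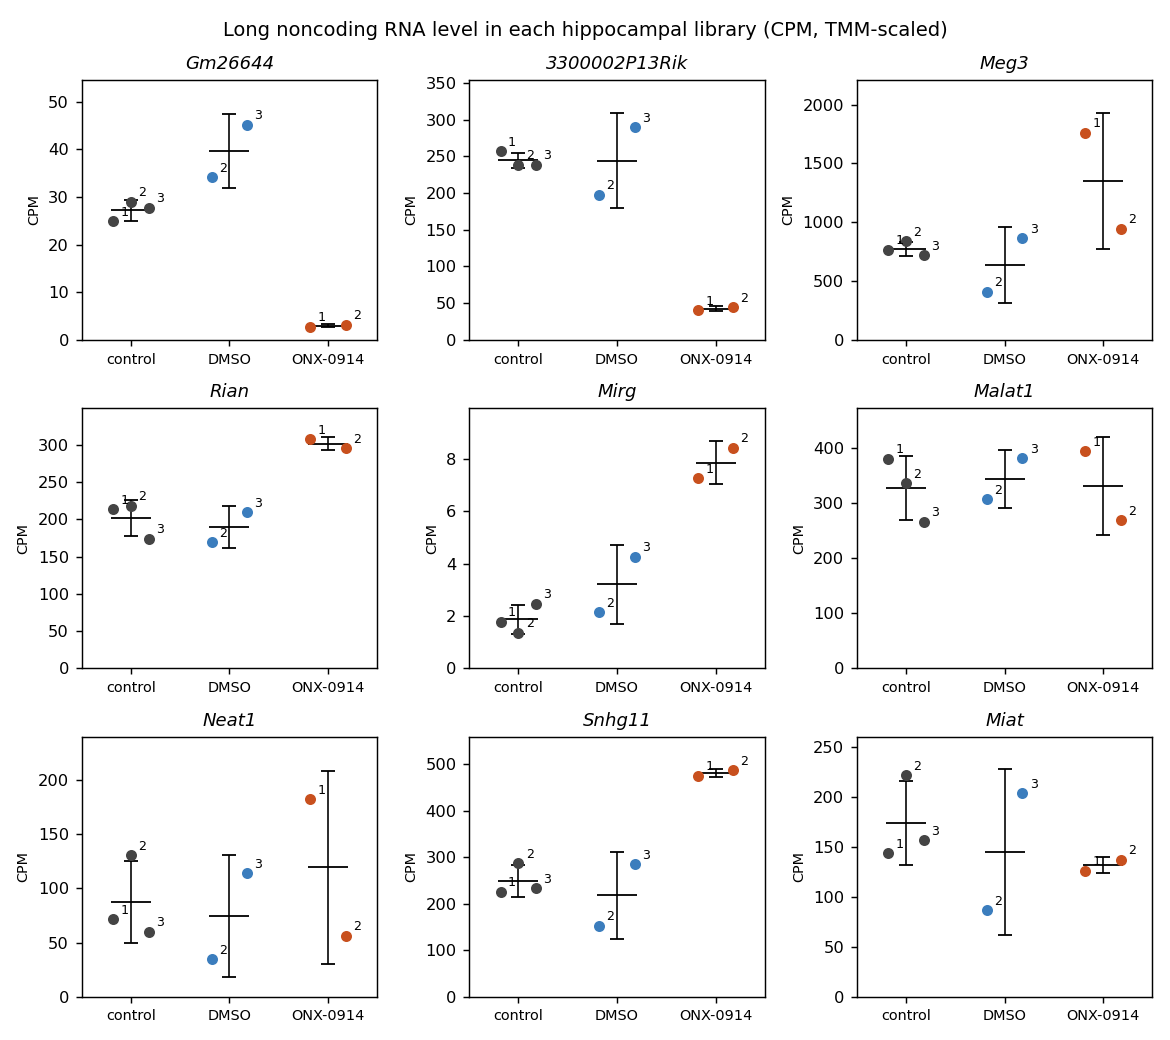
Level of each RNA (CPM, vertical axis from 0) in every library of the 3 groups. Points are libraries with their replicate numbers, and the horizontal and vertical bars are the group mean and SD. Gm26644 and 3300002P13Rik were at 2.76 to 3.22 and 40.6 to 44.9 CPM in ONX-0914, below all other libraries, while Rian, Mirg and Snhg11 lay above all others there.

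The 2 RNAs did not keep a fixed ratio. Per 100 CPM of 3300002P13Rik there were 9.68, 12.2 and 11.6 CPM of Gm26644 in control. In DMSO the ratio was 17.3 and 15.6, and in ONX-0914 it was 6.79 and 7.18. It was therefore lowest in ONX-0914 and highest in DMSO, and it uses only counts of the same library. The low ONX-0914 ratio is a description, since both RNAs were chosen by their ONX-0914 values. In ONX-0914 replicate 1 it rests on 11 counts of Gm26644.

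The genes next to both RNAs were read in the same files. In the GENCODE M21 annotation, 3300002P13Rik lies on chromosome 7 on the minus strand, between Cacng8 and Cacng6, which are on the opposite strand. Cacng8 encodes an auxiliary subunit of AMPA glutamate receptors, and Cacng6 encodes a related calcium channel subunit. Cacng8 was 146, 164 and 158 CPM in control, 143 and 111 in DMSO and 45.3 and 90.9 in ONX-0914. Both ONX-0914 libraries lay below all 5 others, as they did for 11.4% of all genes. Cacng8 did not pass the threshold (Log2FC −1.19, SE 0.289, FDR = 0.124 by edgeR's quasi-likelihood test).

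The ratio of 3300002P13Rik to Cacng8 was lowest in both ONX-0914 libraries, which is a description, since 3300002P13Rik was chosen by its ONX-0914 values. Per 100 CPM of Cacng8 there were 175, 145 and 151 CPM of 3300002P13Rik in control, 138.5 and 260 in DMSO, and 89.5 and 49.4 in ONX-0914. The libraries were directional, but the strand setting of the counting is not given, so reads of a gene and of an overlapping antisense gene may not be told apart. Cacng6 was low throughout, at 3.84 to 5.70 CPM in control and 0.75 and 4.21 in ONX-0914 (Log2FC −0.69, FDR = 0.504 by edgeR). Gm26644 lies on chromosome 19 on the minus strand, and its nearest neighbours, the noncoding AC151478.2 and AC138457.1, were at 0 CPM in at least 6 of the 7 libraries.

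The genes with the most similar pattern were taken as those with the smallest root-mean-square difference of centred log2 CPM over the 7 libraries. For Gm26644 these were Krt2 (0.377), Chrna2 (0.51) and Gm10874 (0.54), and the difference from 3300002P13Rik was 0.421. For 3300002P13Rik they were Igfbp4 (0.332), Chrna2 (0.345) and Npy2r (0.36). This likeness is a description, since the low ONX-0914 values of both RNAs decide it. That of Gm10874 rests on few counts, 0 and 1 in ONX-0914 and 4 to 10 in the other libraries.

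Chrna2, an acetylcholine receptor subunit, was thus named for both RNAs. Igfbp4, a binding protein of insulin-like growth factors, was 261, 182 and 221 CPM in control, 232 and 217 in DMSO and 54.4 and 62.2 in ONX-0914. Krt2, a keratin, was 17.04, 14.7 and 26.3 CPM in control, 16.6 and 22.7 in DMSO and 2.51 and 1.71 in ONX-0914. Npy2r, a receptor of neuropeptide Y, was 51.8, 50.8 and 46.6 CPM in control, 42.7 and 49.8 in DMSO and 7.01 and 17.2 in ONX-0914. All 3 were low in both ONX-0914 libraries.

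The 7 known RNAs were tested in the fit over all genes. With ONX-0914 against control, 0 of the 7 were DEG at an FDR of 0.05 by edgeR's quasi-likelihood test, 3 had an unadjusted p under 0.05, all of them higher in ONX-0914 (Rian, Mirg and Snhg11), and 1, Mirg, was a DEG in DESeq2. Of all 13152 genes, 0.114% were DEG by edgeR, 2.95% were DEG by DESeq2, and 18.6% had an unadjusted p under 0.05, of which those higher in ONX-0914 made up 10.6% of all genes. Counting all 9 RNAs, 2 were DEG, which are the 2 chosen for it. The median Log2FC of the 7 was 0.58, beside 0.05 over all genes tested. Both ONX-0914 libraries lay above all control libraries for Meg3, Rian, Mirg and Snhg11, against 16.9% of all genes, and below them for Miat, against 16.3%. Malat1 and Neat1 overlapped control.

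The 3 RNAs of the Dlk1-Dio3 locus lay above control in both ONX-0914 libraries, by unequal amounts. Mirg, which had the fewest counts, was 1.77, 1.36 and 2.47 CPM in control (5, 5 and 9 counts), 2.14 and 4.26 in DMSO (8 and 12 counts), and 7.27 and 8.42 in ONX-0914 (29 and 128 counts). Both ONX-0914 libraries were above all 5 others. Its Log2FC against control was 2.07 (SE 0.411, FDR = 0.0831 by edgeR), which did not pass the threshold and rests on 5 to 9 counts per control library. The mean CPM was 4.20-fold higher. Mirg was a DEG with DESeq2 (FDR = 0.0458), where 388 genes were, and with no filter on low counts (FDR = 0.0107 by edgeR), where 578 genes were. It was not with the replicate number as a block (FDR = 0.192 by edgeR), with the compared groups alone (FDR = 0.197 by edgeR), or without any 1 of the control libraries (FDR = 0.317 to 0.397 by edgeR).

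Rian differed less, but its groups were tight. It was 214, 218 and 174 CPM in control, 170 and 209 in DMSO and 308 and 296 in ONX-0914. Again both ONX-0914 libraries were above all 5 others. The Log2FC against control was 0.58 (SE 0.179, unadjusted p = 0.0116, FDR = 0.168 by edgeR).

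Meg3, a nuclear RNA of neurons, differed between the ONX-0914 libraries. Its level was 767, 837 and 721 CPM in control, 410 and 865 in DMSO and 1761 and 945 in ONX-0914. The second ONX-0914 library was thus close to DMSO replicate 3, and the pair differed from each other 1.86-fold. The Log2FC against control was 0.80 (SE 0.354, FDR = 0.273 by edgeR). It was 0.28 without ONX-0914 replicate 1, the library with the high thalamus, midbrain and striatum lists, and 1.18 without ONX-0914 replicate 2.

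The genes most like Meg3 over the 7 libraries were Ushbp1, Agbl5 and Ankrd24, with root-mean-square differences of centred log2 CPM of 0.153, 0.168 and 0.219.

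Without ONX-0914 replicate 1 and without replicate 2, Log2FC was 0.54 and 0.61 for Rian and 2.15 and 1.93 for Mirg. These are fits in which the remaining ONX-0914 library is assumed to vary like those of the other groups. Hence, Rian and Mirg kept their size with either library, and Meg3 did not. In both of these fits Rian, Mirg and Snhg11 were DEG by edgeR, and without replicate 2 Meg3 and Neat1 were as well, but 7024 and 2594 genes in all were DEG there.

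The proportions of the 3 locus RNAs varied between libraries of a group. Per 100 CPM of Meg3, Rian was 27.9, 26.1 and 24.1 CPM in control, 41.4 and 24.2 in DMSO, and 17.5 and 31.3 in ONX-0914, so the groups overlapped. Per 100 CPM of Rian, Mirg was 0.831, 0.622 and 1.42 CPM in control, 1.26 and 2.04 in DMSO, and 2.36 and 2.85 in ONX-0914. In that ratio both ONX-0914 libraries were above all 5 others.

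Mirg and Rian carry small RNAs that these files measured hardly at all. The annotation places 14 microRNA genes in the span of Mirg, with 5 counts in all libraries together, and 4 microRNA and 13 small nucleolar RNA genes in that of Rian, of which 3 and 8 were in the files with 8 and 5 counts. Values for Mirg therefore describe the host transcript and not its mature microRNAs. RefSeq (GRCm38.p6) lists 26 mature microRNAs of Mirg, of which 3 are shown, 1 that is known from dendrites of neurons and a pair from different hairpins with the same seed, GGUUGCC. Bases 2 to 8, the seed, are in capitals.
miR-134-5p: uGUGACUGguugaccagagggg
miR-453: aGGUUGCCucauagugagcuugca
miR-496a-5p: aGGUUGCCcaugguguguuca

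Of the 4 protein-coding genes read at the same locus, 2 had enough counts to be tested. Dlk1, a Notch-like membrane protein, was 3.90, 0.814 and 1.37 CPM in control, 1.87 and 0.355 in DMSO and 19.8 and 2.76 in ONX-0914. Its Log2FC of 2.39 (SE 0.962, FDR = 0.241 by edgeR) thus rests largely on ONX-0914 replicate 1. Begain, a postsynaptic scaffold protein encoded next to the locus, was 76.8 to 81.7 CPM in control, 76.9 and 86.0 in DMSO and 72.9 and 117 in ONX-0914 (Log2FC 0.28, FDR = 0.502 by edgeR), so its ONX-0914 libraries lay on either side of all others. Rtl1 and Dio3 had too few counts to be tested. Both ONX-0914 libraries lay above all 5 others, as they did for 11.3% of the genes that were tested. Rtl1 was 3.26 and 1.91 CPM in ONX-0914 (13 and 29 counts) against 0 to 1.37 in the others (0 to 5 counts). Dio3 was 3.51 and 1.12 CPM (14 and 17 counts) against 0 to 1.097 (0 to 4 counts). For Dio3, ONX-0914 replicate 2 thus hardly differed from the highest control library.

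Snhg11 had nearly the same level in both ONX-0914 libraries. It was 226, 287 and 233 CPM in control, 153 and 285 in DMSO and 475 and 487 in ONX-0914. Both ONX-0914 libraries were above all 5 others. The means were 249 ± 33.5 CPM in control (SD, n = 3) and 481 ± 8.56 in ONX-0914 (SD, n = 2), a 1.93-fold difference of the means (Log2FC 0.95, SE 0.26, unadjusted p = 0.00611, FDR = 0.142 by edgeR). Log2FC was 0.96 with ONX-0914 replicate 1 left out and 0.93 with replicate 2 left out. With no filter on low counts, Snhg11 was a DEG (FDR = 0.0255 by edgeR). It was not with the compared groups alone (FDR = 0.199 by edgeR), nor without any 1 of the control libraries (FDR = 0.385 to 0.411 by edgeR).

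Other host genes of small nucleolar RNAs had Log2FC of both signs. Of 17 such genes, 14 matched an identifier and 10 were tested. By edgeR 0 were DEG, 1 had an unadjusted p under 0.05 (beside 18.6% of all genes) and, by DESeq2, 0 were DEG. That 1 was Snhg15, which had few counts. It was 0.548 to 1.42 CPM in control (2 to 5 counts) and 0.801 and 0.711 in DMSO (3 and 2 counts). In ONX-0914 it was 2.76 and 2.5001 CPM (11 and 38 counts), above all 5 others, against 11.3% of all genes (Log2FC 1.23, FDR = 0.264 by edgeR). The median Log2FC of the 10 was −0.23, beside 0.05 over all genes. Gas5, the most abundant of them, was 80.9 to 86.9 CPM in control and 82.4 and 58.4 in ONX-0914 (Log2FC −0.26). In these files Snhg11 is typed as protein coding by the annotation, and the 2 small nucleolar RNA genes in its span had 19 counts in all libraries together.

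Malat1, the speckle RNA, did not separate the groups. It was 382, 336 and 267 CPM in control, 308 and 382 in DMSO and 395 and 269 in ONX-0914. The 3 groups overlapped, and the Log2FC against control was 0.02 (SE 0.238, FDR = 0.980 by edgeR). It was −0.29 with ONX-0914 replicate 1 left out and 0.27 with replicate 2 left out.

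Neat1 varied more within groups than between them. Its level was 71.7, 131 and 60.1 CPM in control, 34.7 and 114 in DMSO, and 183 and 56.5 in ONX-0914. The highest and lowest ONX-0914 libraries thus enclosed all of control. The Log2FC against control was 0.44 (SE 0.601, FDR = 0.708 by edgeR), and it was −0.65 with ONX-0914 replicate 1 left out and 1.05 with replicate 2 left out.

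Neat1 and Malat1 lie on the same chromosome and did not keep a fixed ratio. Per 100 CPM of Malat1, Neat1 was 18.8, 38.8 and 22.5 CPM in control, 11.3 and 29.9 in DMSO, and 46.2 and 21.002 in ONX-0914. The range within every group was wide, and the groups overlapped.

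Miat was 144, 221 and 157 CPM in control, 86.6 and 204 in DMSO and 126 and 137 in ONX-0914. The 2 ONX-0914 libraries lay below control but between the DMSO libraries. The Log2FC against control was −0.40 (SE 0.347, FDR = 0.539 by edgeR), −0.36 without ONX-0914 replicate 1 and −0.47 without replicate 2.

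**Figure D2:**
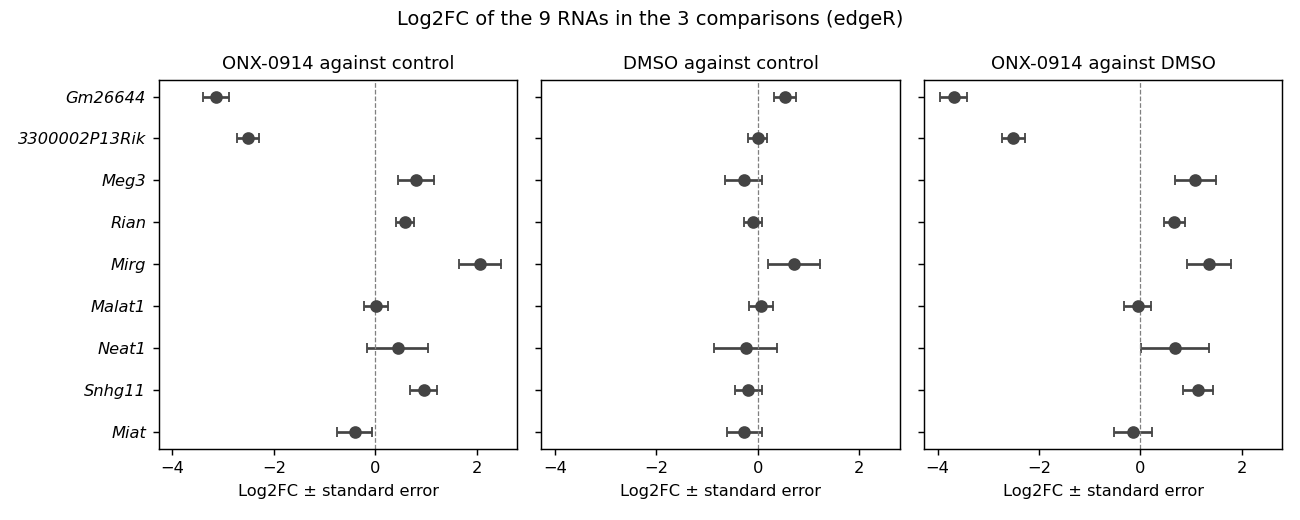
Log2FC of the 9 RNAs (points) with its standard error (bars) in each of the 3 comparisons, from the edgeR fit. Gm26644 and 3300002P13Rik were at −3.14 and −2.51 against control and at −3.68 and −2.51 against DMSO, while with DMSO against control all 9 lay between −0.28 and 0.72.

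Genes that work with these nuclear RNAs were read from 2 lists. Of 15 genes of paraspeckle proteins, 0 were DEG by edgeR and 0 by DESeq2, 3 had an unadjusted p under 0.05 (beside 18.6% of all genes), all of them lower in ONX-0914, and 12 had a negative Log2FC (median −0.37). Hnrnpa1, an RNA-binding protein, was 559 to 586 CPM in control and 505 and 184 in ONX-0914 (Log2FC −0.75, FDR = 0.310 by edgeR). It was lowest in ONX-0914 replicate 2, the library with the high mitochondrially encoded list.

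Of 20 genes of nuclear speckles and splicing, 0 were DEG by edgeR and 0 by DESeq2, and 5 had an unadjusted p under 0.05 (beside 18.6% of all genes), of which 3 were higher and 2 lower in ONX-0914. The median Log2FC was −0.09. Ptbp1, a splicing repressor, was 4.61 to 6.79 CPM in control and 6.26 and 19.8 in ONX-0914 (Log2FC 1.18, FDR = 0.226 by edgeR). Rnps1, a splicing activator, was 110 to 115 CPM in control and 86.4 and 29.1 in ONX-0914 (Log2FC −0.98, FDR = 0.235 by edgeR).

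DMSO against control addresses the vehicle together with the repeated injections, since control mice were untreated. These cannot be told apart here. By edgeR 0 of the 9 RNAs were DEG, beside 0.0152% of all genes, and 1 had an unadjusted p under 0.05, beside 2.65%. By DESeq2 0 were DEG, beside 0.0684% of all genes. That 1 was Gm26644, with a Log2FC of 0.54 (SE 0.209, unadjusted p = 0.0324, FDR = 0.9999 by edgeR), and it was the only one of the 9 with both DMSO libraries above all of control, against 15.7% of all genes. The ONX-0914 contrast chose Gm26644 and not this one, but both contrasts share the control libraries. Log2FC was −0.01 for 3300002P13Rik, −0.28 for Meg3 and 0.72 (SE 0.514) for Mirg.

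The 2 DMSO libraries differed for several known RNAs. Neat1 was 3.29-fold, Miat 2.36-fold, Meg3 2.11-fold and Snhg11 1.87-fold higher in replicate 3 than in replicate 2, where the median over all genes of the higher over the lower DMSO library was 1.16-fold. DMSO replicate 2 was the lowest of all 7 libraries for Meg3, Rian, Neat1, Snhg11 and Miat. Rian (1.23-fold) and Malat1 (1.24-fold) differed less. DMSO replicate 2 also had the smallest share of reads on no gene, 4.75%, against 5.39% in DMSO replicate 3, 5.48% to 5.59% in control and 6.39% to 6.49% in ONX-0914. The part of this share in the levels was not tested. In control, replicate 2 was the highest of the 3 for Meg3, Rian, Neat1, Snhg11 and Miat.

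Leaving out DMSO replicate 2 turned the sign of Log2FC for DMSO against control in 6 of the 9 RNAs. Without it, Log2FC was 0.16 for Meg3, 0.05 for Rian, 0.38 for Neat1, 0.19 for Snhg11, 0.23 for Miat and 0.24 for 3300002P13Rik. None of these was a DEG with or without it by edgeR.

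With ONX-0914 against DMSO, 0 of the 7 known RNAs were DEG by edgeR, beside 0.0456% of all genes, and 4 had an unadjusted p under 0.05, all higher in ONX-0914, beside 14.7% in either direction and 8.07% higher. By DESeq2 1 was a DEG, Snhg11 (FDR = 0.0314), beside 1.86% of all genes. Log2FC was 1.09 for Meg3, 0.67 for Rian, 1.35 for Mirg and 1.14 (SE 0.293, FDR = 0.182 by edgeR) for Snhg11. It was −0.05 for Malat1, 0.68 (SE 0.67) for Neat1 and −0.14 for Miat.

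Some of these values depended on single libraries. Without ONX-0914 replicate 1 and without replicate 2, Log2FC against DMSO was 0.56 and 1.47 for Meg3, 0.64 and 0.70 for Rian, 1.45 and 1.24 for Mirg and 1.16 and 1.13 for Snhg11. It was −0.36 and 0.20 for Malat1, −0.36 and 1.34 for Neat1, and −0.0685 and −0.18 for Miat. Without DMSO replicate 2 and without DMSO replicate 3, it was 0.64 and 1.71 for Meg3, 0.52 and 0.82 for Rian, 0.88 and 1.88 for Mirg and 0.75 and 1.65 for Snhg11. For Meg3, Rian, Mirg and Snhg11 both ONX-0914 libraries were above all 5 others, against 11.3% of all genes, as the values above show. Gm26644 and 3300002P13Rik were below all 5 in both, as 11.4% of all genes were, which follows from their choice and is no result.

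Levels of different RNAs were compared only per length, as CPM per kilobase (kb) of annotated exon. In control, 3300002P13Rik was the highest at 224 ± 9.61 CPM per kb (SD, n = 3), followed by Malat1 at 47.0 ± 8.28 and Meg3 at 42.8 ± 3.25. The ranges of Malat1 and Meg3 overlapped. Snhg11 (29.2 ± 3.93), Miat (18.7 ± 4.48), Rian (11.1 ± 1.34), Gm26644 (9.11 ± 0.718), Neat1 (4.21 ± 1.82) and Mirg (0.256 ± 0.077) followed, and the ranges of Rian and Gm26644 overlapped. The short annotated exon length of 3300002P13Rik, 1092 bases, enters its place in this order.

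In ONX-0914 the means had another order. Meg3 was at 74.8 ± 31.9 CPM per kb (SD, n = 2), Snhg11 at 56.5 ± 1.004, Malat1 at 47.6 ± 12.8 and 3300002P13Rik at 39.1 ± 2.77. Meg3 was above Snhg11 in replicate 1 only (97.3 against 55.7 CPM per kb), and in replicate 2 it was 52.2 against 57.2. Gm26644 was at 1.001 ± 0.111 and Mirg at 1.08 ± 0.112, which lay within each other's spread. The annotation used for lengths may differ from that of the counts.

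**Figure D3:**
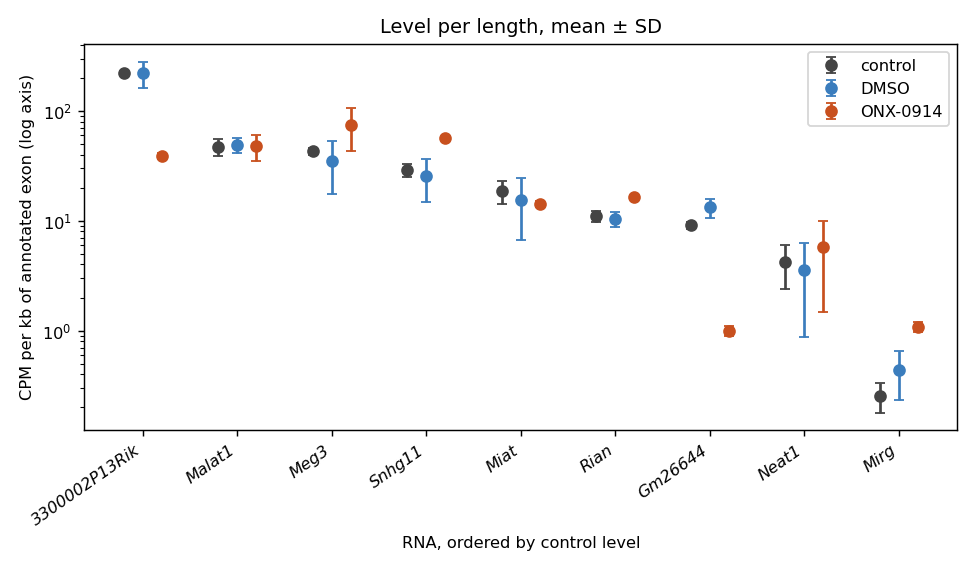
Level per length (CPM per kb of annotated exon, log axis) of each RNA, ordered by its control level. Points are group means and bars the SD over 3 control, 2 DMSO and 2 ONX-0914 libraries. In control, 3300002P13Rik was at 224 CPM per kb, above Malat1 at 47.0 and Meg3 at 42.8, and in ONX-0914 it was at 39.1.

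A wider list of 45 other known noncoding RNAs placed these values among their kind. Of them, 37 matched an identifier and 26 were tested. By edgeR 0 were DEG with ONX-0914 against control, 8 had an unadjusted p under 0.05, of which 6 were higher and 2 lower, and by DESeq2 2 were DEG, both higher. These are 30.8% and 7.69% of the 26, beside 18.6% and 2.95% of all genes. The median Log2FC was 0.07. Both ONX-0914 libraries lay above all control libraries for 7 of the 26 and below them for 3, beside 16.9% and 16.3% of all genes.

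The 2 DEG of DESeq2 in that list were Bc1 and Mir124-2hg. Bc1, a small cytoplasmic RNA of dendrites, was 2237, 1029 and 1404 CPM in control, 2651 and 1359 in DMSO and 2801 and 18812 in ONX-0914. Its Log2FC of 2.80 (SE 0.712, FDR = 0.133 by edgeR) thus rests largely on replicate 2. Mir124-2hg, a host gene of the neuronal microRNA miR-124, was 12.4, 18.7 and 16.2 CPM in control, 12.6 and 10.3 in DMSO and 92.2 and 35.5 in ONX-0914 (Log2FC 1.99, SE 0.386, FDR = 0.0771 by edgeR). Both ONX-0914 libraries were above all 5 others for each of them, against 11.3% of all genes.

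Among all genes that the annotation types as lincRNA, 169 were tested with ONX-0914 against control. The 2 DEG among them were Gm26644 and 3300002P13Rik, which were chosen as such, so nothing is read from that count. Of the 169, 17.2% had an unadjusted p under 0.05, beside 18.6% of the 12411 protein-coding genes. The median Log2FC was 0.07 and 0.05, respectively.

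**Figure D4:**
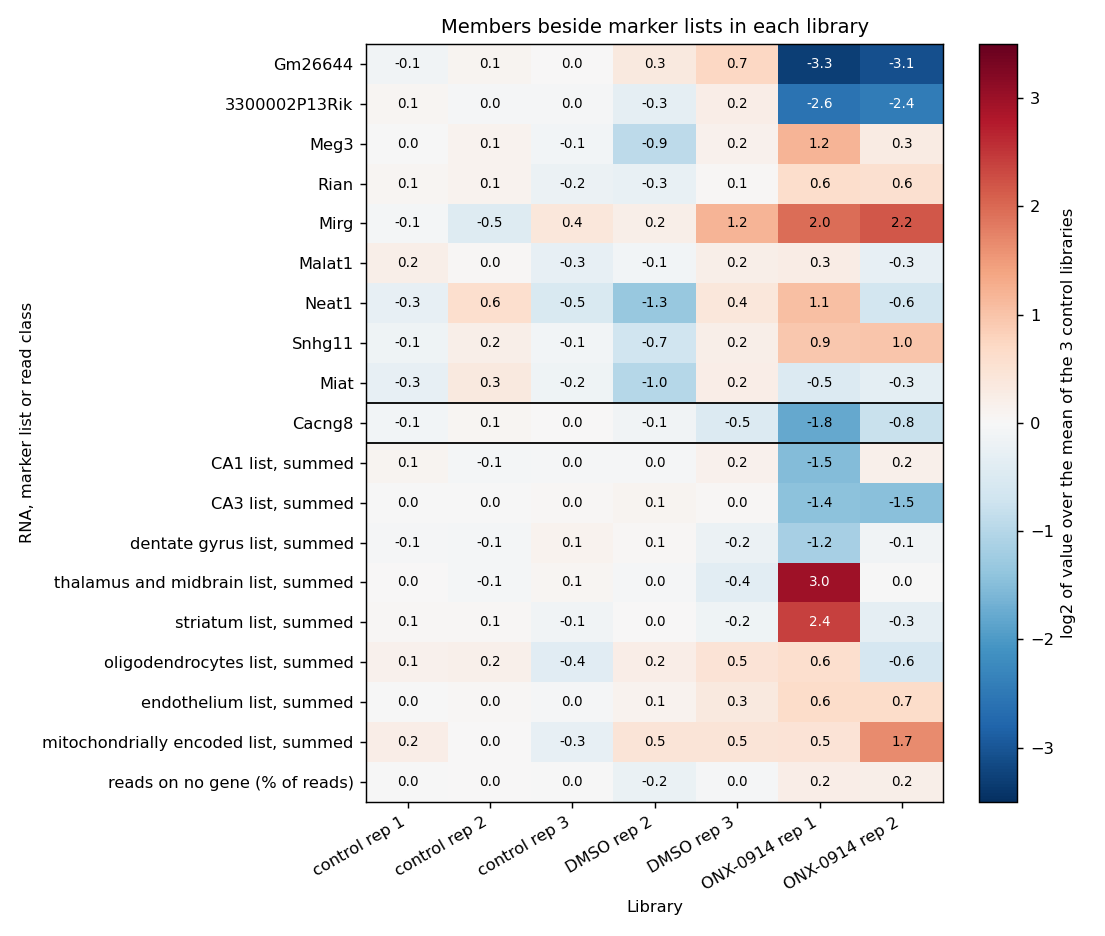
Each cell is the log2 of a library's value over the mean of the 3 control libraries, for the 9 RNAs, the neighbour gene Cacng8, summed marker lists and the share of reads on no gene. Columns are libraries, red is above and blue below control. Gm26644, 3300002P13Rik and the CA3 list, most of it Chgb, were low in both ONX-0914 libraries, whereas the thalamus, midbrain and striatum lists were high in ONX-0914 replicate 1 alone.

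Beside the members, the marker lists moved as follows. The endothelium list was 310 and 313.5 CPM in ONX-0914 against 195 to 206 in control, and 219 and 254 in DMSO. All 5 of its genes had an unadjusted p under 0.05 by edgeR with ONX-0914 against control, and 2 with ONX-0914 against DMSO. The neuron list was 9864 and 7293 CPM against 10941 to 11836, and the oligodendrocyte list was 9811 and 4357 against 4976 to 7467. In DMSO the neuron list was 11132 and 10201 CPM and the oligodendrocyte list 7765 and 9158. The microglia list was 331 and 460 CPM against 280 to 299 in control, and 322 and 356 in DMSO. Both DMSO libraries thus lay above all of control for the endothelium, oligodendrocyte and microglia lists. The lists of astrocytes (3821 and 2345 against 3203 to 3800), oligodendrocyte precursors (296 and 232 against 194 to 238), neocortex (221 and 310.0 against 230 to 298) and choroid plexus (74.2 and 185 against 40.6 to 188) did not lie on one side of control in both ONX-0914 libraries. Chgb, a granin of secretory vesicles, held most of the CA3 list and was 2117, 2115 and 2232 CPM in control, 2306 and 2219 in DMSO and 781 and 638 in ONX-0914 (Log2FC −1.60, FDR = 0.0510 by edgeR). By edgeR 0 genes of the CA3, endothelium, neuron and oligodendrocyte lists were DEG. Of their 6, 5, 9 and 8 genes tested, 3, 5, 1 and 1 had an unadjusted p under 0.05, beside 18.6% of all genes. By DESeq2 2, 1, 0 and 0 were DEG, beside 2.95% of all genes. In the striatum, thalamus and midbrain, and mitochondrially encoded lists, 6 of 9, 5 of 8 and 6 of 7 genes tested had an unadjusted p under 0.05. All of these were higher in ONX-0914, and 4, 2 and 5 genes were DEG by DESeq2 and 0 by edgeR. The part of the marker lists in the levels of the 9 RNAs was not tested.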

How the data were processed

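The data are hippocampal RNA-seq of 7 mouse libraries (3 control, 2 DMSO, 2 ONX-0914). The authors deposited raw counts of reads per gene, 1 file per library. The submitters' processing notes name Trimmomatic 0.39, STAR 2.7.3a, featureCounts 2.00 and the genome build GRCm39. The annotation and the strand setting are not given in the sources used here. Of the reads, 89.6% to 91.4% were on genes, 4.75% to 6.49% on no gene and 3.75% to 3.92% ambiguous, and the last 2 classes stayed out of library sizes and tests. Symbols, types and exon lengths came from GENCODE M21 (GRCm38), which holds 52135 of 55416 identifiers.

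The tests used edgeR 4.0.16 (R 4.3.3): filterByExpr, TMM (factors 0.966 to 1.10), glmQLFit and glmQLFTest with 1 mean per group over all 7 libraries, and Benjamini–Hochberg adjustment over 13152 genes (FDR threshold 0.05). The biological coefficient of variation was 0.249. Log2FC used a prior count of 0.125 and likeness a prior count of 2. Depth limits Mirg most, and such limits cover counting error only. The steps were tested on simulated counts.

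The members, gene lists and tests were chosen with earlier results of these data known. Genes named were the 9 members, the 3 genes most like Gm26644, 3300002P13Rik and Meg3, the nearest neighbours of the first 2, the coding genes of the Dlk1-Dio3 locus, and per list the DEG or else the 2 largest Log2FC and the most abundant gene. Alternatives were DESeq2 1.42.0, RLE size factors, total counts, no filter, the compared groups alone, the replicate number as a block and leaving out each library. The earlier form of the quasi-likelihood fit was added after seeing the data. Marker lists of cell types and brain regions were read mainly as sums of CPM, and few of their single genes are named. The values of 1 gene that this rule names are not reported here.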

Additional observations from a re-analysis of the deposited data

How the results depend on the processing

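With ONX-0914 against control, 15 genes and 2 of the 9 RNAs were DEG by edgeR. These 2 are Gm26644 and 3300002P13Rik, which were chosen for it, so their part in the counts of RNAs is a description and no test. The counts were 578 and 4 with no filter on low counts, 388 and 3 with DESeq2, 3 and 2 with the compared groups alone, and 1 and 0 with the replicate number as a block (1783 genes and 4 RNAs at an unadjusted p under 0.05). Leaving out 1 library gave 0 to 7024 genes and 0 to 7 RNAs: 0 without any 1 of the control libraries (1423 to 1554 genes unadjusted), 3 without either DMSO library, 7024 without ONX-0914 replicate 1 and 2594 without replicate 2. With 1 ONX-0914 library left, the spread comes from the other groups alone.

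With DMSO against control, 2 genes were DEG, 11 with no filter, 9 with DESeq2, 0 with the block (281 unadjusted) and 141 with the compared groups alone. Leaving out 1 library gave 0 to 146, and 0 of the 9 RNAs were DEG in each. With ONX-0914 against DMSO, 6 genes and 2 RNAs were DEG, and these were again the 2 chosen RNAs. The number of genes was 11 with RLE size factors, 3 with total counts, 297 with no filter and 245 with DESeq2. Both were 0 with the block (1641 genes unadjusted) and with the compared groups alone (821). Leaving out 1 library gave 0 to 6311 genes and 0 to 6 RNAs.

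Deviations of same-numbered libraries from their group means correlated at −0.0963 to 0.0640. In a group of 2 libraries these deviations are equal and opposite, so the correlations cannot exclude a batch shared by replicate number. Log2FC of Gm26644 and 3300002P13Rik against control was −3.09 and −2.45 with the block. Without 1 control library it was −3.21 to −3.10 and −2.53 to −2.48, although 0 genes in all were DEG there.

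Signs turned as follows, and the cause was not tested. Malat1 was −0.0684 with the block against control and 0.0639 with total counts against DMSO, 3300002P13Rik was 0.0078 with total counts for DMSO against control, and Miat was 0.21 with the block against DMSO. Total counts moved the median Log2FC of all genes from 0.05 to 0.19 with ONX-0914 against control. Leaving out 1 library, Log2FC with ONX-0914 against control spanned −0.29 to 0.27 for Malat1 and −0.65 to 1.05 for Neat1. With ONX-0914 against DMSO it spanned −0.36 to 0.20 for Malat1, −0.36 to 1.76 for Neat1 and −0.64 to 0.60 for Miat. With DMSO against control it spanned −0.31 to 0.24 for 3300002P13Rik, −0.92 to 0.16 for Meg3, −0.25 to 0.0509 for Rian, −0.0943 to 0.22 for Malat1, −1.34 to 0.38 for Neat1, −0.71 to 0.19 for Snhg11 and −1.01 to 0.23 for Miat. Of all values of single RNAs under the alternatives, 315 kept direction and side of the threshold, 21 reversed, 21 passed it and 20 lost it.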
